A study of Mus musculus with 9 samples.

Results

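The expression of 10 genes of the elastic fibre and its microfibrils was followed in 3T3-L1 cells, a line of mouse fibroblast-like preadipocytes that fill with lipid after hormonal induction. The genes were chosen by their symbols, as the proteins that build the fibre or lie on it: Eln, Fbn1, Fbn2, Fbln1, Fbln2, Fbln5, Mfap2, Mfap4, Mfap5 and Emilin1. Of these 10, 9 were found among the 19094 genes with a value, and Fbn2 (fibrillin-2) was not analysed here. RNA was sequenced from preadipocytes at day 0, before induction, from cells at day 4 and from cells at day 8, with 3 replicates per day and 9 samples in all. Day 0 cells had grown to confluence in complete medium without inducers. Day 4 cells had received induction medium with dexamethasone, IBMX and insulin, followed by maintenance medium with insulin, and day 8 cells had stayed longer in the maintenance medium. The labels give no genetic change and no further agent for any of the 9 samples. The labels call the cell type adipocytes on every day, day 0 included. Cells were pooled within each stage, and no source used here says that the replicates were separate cultures, so p-values measure only the spread between these samples, which may be technical.

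Day 4 against day 0 is called the early phase here, day 8 against day 4 the late phase, and day 8 against day 0 the whole process. The 3 comparisons share samples, so their values are given side by side and were not correlated. Levels are given as FPKM, a unit corrected for gene length and sequencing depth. Changes are log2 fold changes from edgeR's quasi-likelihood test on the counts, fitted to all 13154 genes that passed the filter on low counts. A gene was called upregulated or downregulated at an adjusted p under 0.05 (Benjamini-Hochberg over all 13154 genes) and a change of more than 2-fold. The expected counts, RSEM's estimates of the reads of each gene, summed to between 18216114 and 20452144 per sample. Counts of 3 in a sample were taken as the lowest level this depth can show, which covers counting error only.

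Elastic fibres give skin, vessels, lung and the stroma of fat their recoil. They consist of a core of crosslinked elastin, which is deposited on a scaffold of fibrillin microfibrils. Fibulins and EMILINs lie between the core and the scaffold, microfibril-associated proteins decorate the microfibrils, and lysyl oxidases crosslink the tropoelastin monomers. Microfibrils also hold latent TGF-beta near the cell surface through latent TGF-beta binding proteins. Fibroblasts and smooth muscle cells are the best known producers of these proteins.

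Of the 9 genes, 5 (Fbn1, Fbln1, Fbln2, Fbln5 and Mfap4) had their 3 lowest samples at day 4, and 2 (Eln and Mfap4) were far higher at day 8 than before. In the early phase, 1 gene (Eln) was upregulated and 3 (Fbn1, Fbln1 and Fbln2) were downregulated among the 8 genes tested. Among all 13154 genes, 9.77% were upregulated and 7.98% downregulated in this phase. In the late phase, 4 genes (Eln, Fbn1, Fbln1 and Mfap4) were upregulated and 0 downregulated by edgeR, against 4.24% and 2.81% of all genes. Over the whole process, 3 genes (Eln, Mfap4 and Mfap5) were upregulated and 0 downregulated, against 10.3% and 7.7% of all genes. In either direction, 17.8%, 7.05% and 18% of all genes were called in the 3 comparisons, against 4, 4 and 3 of the 8. Without the fold threshold, 3 of the 8 were higher and 5 lower in the early phase (adjusted p under 0.05), against 35.5% and 33.7% of all genes. In the late phase 7 were higher and 0 lower, against 22.5% and 22.7%, and over the whole process 3 were higher and 4 lower, against 34.8% and 36.2%. These counts were the same at an unadjusted p under 0.05. DESeq2 also called 0 of the 8 downregulated in these 2 comparisons. The median log2 fold change of the 8 genes was -0.68 in the early phase, 1.07 in the late phase and -0.03 over the whole process. For all tested genes, the medians were 0.02, -0.01 and -0.02. Mfap2 had a value but was too low to be tested.

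**Figure D1:**
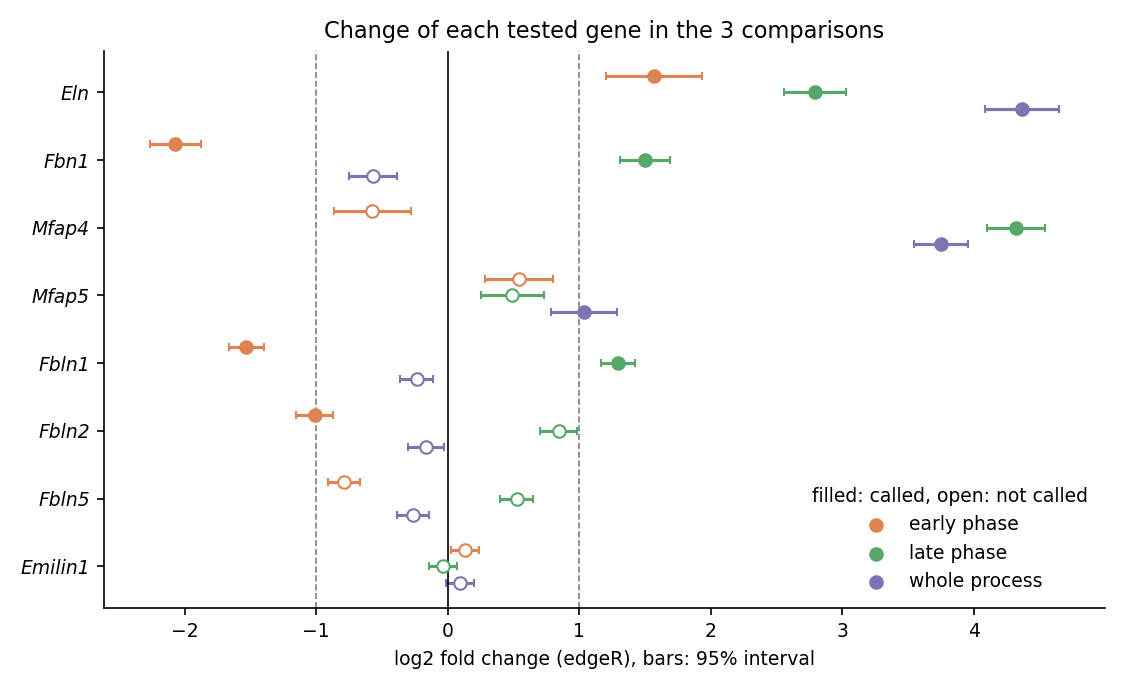
Log2 fold changes (x axis, edgeR) of the 8 tested genes for the early phase, the late phase and the whole process. Points are estimates, bars are 95% intervals, filled points were called, and dashed lines mark a 2-fold change. Fbn1 and Fbln1 lie left of the lower line in the early phase and right of the upper line in the late phase, while Eln lies right of the upper line in all 3 comparisons.

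Eln (NCBI gene ID 13717) encodes tropoelastin, the monomer of the elastic core. The FPKM of Eln was 0.38, 0.28 and 0.41 at day 0, 0.92, 1.18 and 0.98 at day 4, and 6.75, 6.73 and 7.26 at day 8. The samples of the 3 days did not overlap, and day 8 stood furthest apart. These levels rest on 20 to 33 counts in each day 0 sample, 72 to 94 in each day 4 sample and 529 to 562 in each day 8 sample. Eln was upregulated in the early phase (log2 fold change 1.57, SE 0.17, adjusted p = 5.5e-07 by edgeR) and in the late phase (2.79, SE 0.11, adjusted p = 1.2e-11). Over the whole process it was upregulated 20.6-fold (4.37, SE 0.13, adjusted p = 8.4e-14). By limma on log2(FPKM + 1), which understates the change of low genes, the early value was 0.58 and under 2-fold. Even at day 8, Eln ranked 7466th of 17284 genes with a value by mean FPKM.

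Fbn1 (14118) encodes fibrillin-1, the main structural protein of microfibrils, whose C-terminal propeptide asprosin is known as a hormone of white fat. Its FPKM was 60.79, 53.32 and 58.06 at day 0, 15.31, 12.66 and 11.19 at day 4, and 33.46, 36.47 and 37.45 at day 8. Day 4 was thus below both other days in every sample, and day 8 stayed below day 0. Fbn1 was downregulated 4.20-fold in the early phase (log2 fold change -2.07, SE 0.09, adjusted p = 7.0e-12 by edgeR). In the late phase it was upregulated 2.83-fold (1.50, SE 0.09, adjusted p = 1.7e-09). Over the whole process the log2 fold change was -0.57 (SE 0.09, adjusted p = 2.2e-05), short of the fold threshold. Reads of Eln and Fbn1 could include reads of genes annotated on the opposite strand (Gm30003 and Gm9913), since the strand setting of the counting is not given in the sources used here.

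Microfibril-associated proteins bind fibrillin or elastin from outside. Mfap4 (76293), a fibrinogen-related protein that binds tropoelastin and fibrillin, had an FPKM of 3.88, 3.70 and 4.53 at day 0, of 2.51, 2.51 and 2.77 at day 4, and of 45.13, 51.24 and 54.97 at day 8. The day 8 samples stood about an order of magnitude above all others, and day 4 was the lowest. Between day 0 and day 4, the log2 fold change was -0.57 (SE 0.14, adjusted p = 0.0017 by edgeR), short of the fold threshold. Mfap4 was then upregulated in the late phase (20.02-fold, log2 fold change 4.32, SE 0.10, adjusted p = 4.8e-14), and over the whole process 13.5-fold (3.75, SE 0.10, adjusted p = 1.2e-14). By mean FPKM, its rank moved from 9137th at day 0 and 9851st at day 4 to 1656th at day 8. Mapk7, a kinase gene whose exons overlap those of Mfap4 on the other strand, had 21.8 ± 0.329, 23.3 ± 1.03 and 25.7 ± 0.797 FPKM at day 0, 4 and 8 (mean ± SD, n = 3). Its log2 fold change in the late phase was 0.18, against 4.32 for Mfap4.

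Mfap5 and Mfap2 encode the small microfibril-associated glycoproteins MAGP-2 and MAGP-1, which bind fibrillin. For Mfap5 (50530), the FPKM was 5.60, 4.47 and 5.28 at day 0, 7.65, 7.81 and 5.95 at day 4, and 10.07, 9.24 and 9.91 at day 8. Its samples did not overlap between days, with the lowest at day 0 and the highest at day 8. The log2 fold changes were 0.54 (SE 0.12, adjusted p = 0.00093 by edgeR) in the early phase and 0.49 (SE 0.11, adjusted p = 0.0022) in the late phase, both under 2-fold. Over the whole process Mfap5 was upregulated by just over 2-fold (1.04, SE 0.12, adjusted p = 8.9e-07), a call that ended without day 0 replicate 2 (0.95), with library size alone (0.92) or with upper-quartile factors (0.98). With glmTreat, which tests for a change of more than 2-fold, its adjusted p was 0.996.

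For Mfap2 (17150), the FPKM was 0.09, 0.11 and 0.24 at day 0, 0.43, 0.37 and 0.44 at day 4, and 0.24, 0.51 and 0.44 at day 8. It rested on 2 to 11 counts per sample, with 2 counts in a pair of the day 0 samples, below the floor of 3. Without the filter on low counts, edgeR gave values of 1.53 on the log2 scale in the early phase (adjusted p = 0.030), -0.01 in the late phase (adjusted p = 1) and 1.53 over the whole process (adjusted p = 0.031). At this depth, Mfap2 was close to the limit of detection on every day, while Mfap5 was detected with 114 to 284 counts per sample. The log2 ratio of Mfap5 to Mfap2 (FPKM) was 5.25 ± 0.75, 4.10 ± 0.32 and 4.69 ± 0.63 at day 0, 4 and 8 (SD, n = 3). It rests on these few counts of Mfap2, and the day 0 value, with Mfap2 below the floor in a pair of samples, is not a precise ratio and was 4.44 with a pseudocount of 0.1.

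**Figure D2:**
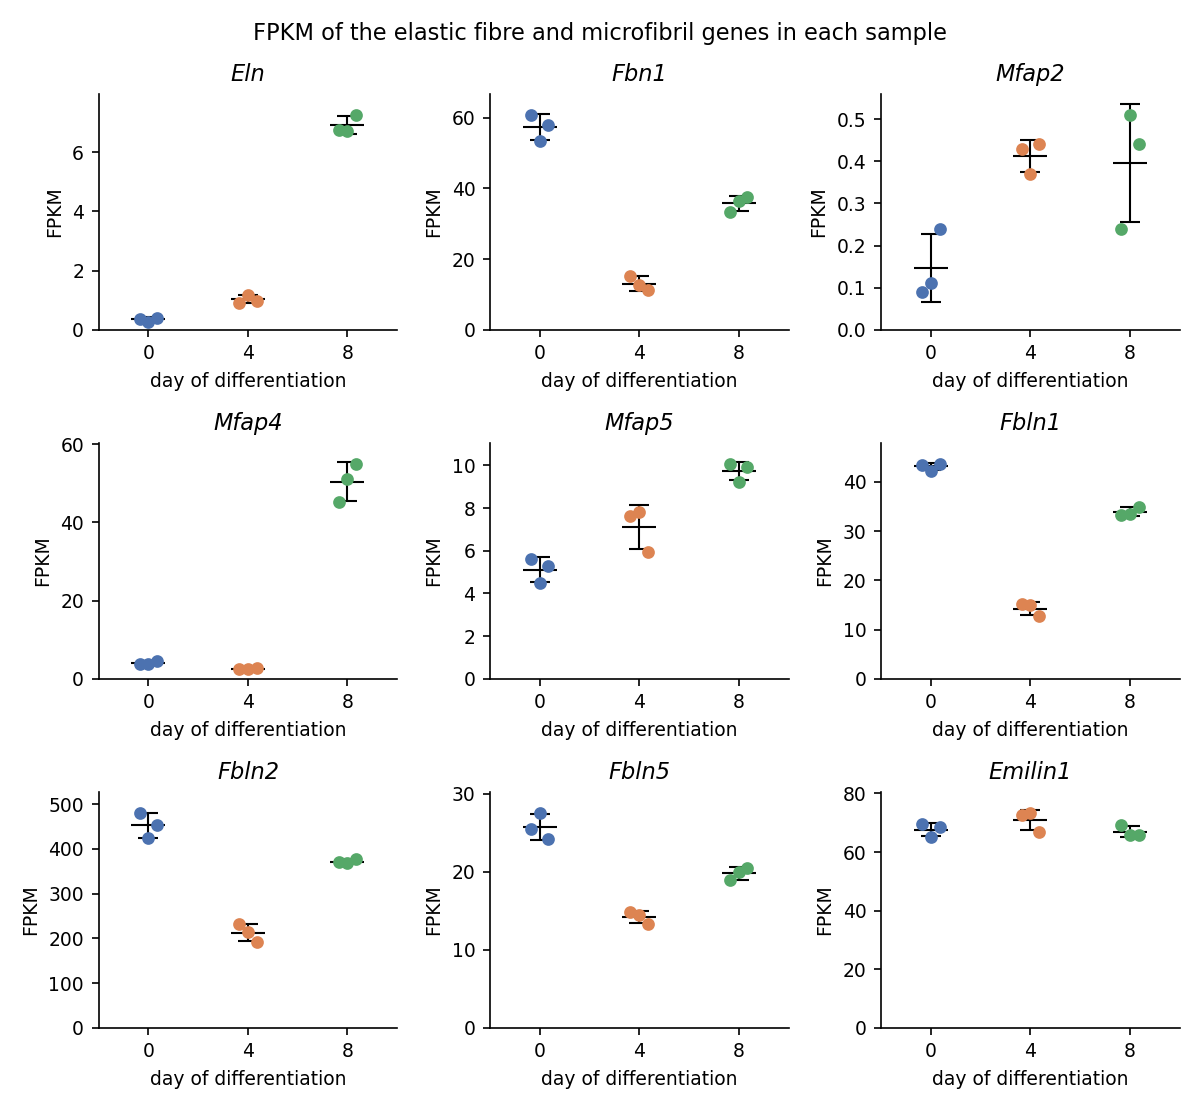
FPKM (y axis, linear, a scale of its own in each panel) of the 9 genes by day of differentiation (x axis). Points are the 3 samples of a day, the long line is the mean and the bars are 1 SD; Fbn1, Fbln1, Fbln2 and Fbln5 dip at day 4, Eln and Mfap4 stand highest at day 8, and Emilin1 lies between 65.13 and 73.34 in all 9 samples.

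Fibulins are secreted glycoproteins with calcium-binding EGF-like repeats that bridge elastin, fibrillin and the cell surface. All 3 fibulins measured as part of the fibre had the same order of days, highest at day 0, lowest at day 4 and in between at day 8, without overlap of samples. Fbln2 (14115), which binds both tropoelastin and fibrillin-1, was by far the most abundant gene of the group. Its FPKM was 480.11, 425.06 and 452.75 at day 0, 231.91, 213.39 and 192.71 at day 4, and 370.07, 367.49 and 377.48 at day 8. The early log2 fold change was -1.01 (SE 0.07, adjusted p = 9.2e-10 by edgeR), so its call as downregulated stood at the 2-fold limit. Without day 0 replicate 1 it was -0.96 and without day 4 replicate 3 it was -0.94, and the call ended in both cases, as it did with glmTreat (adjusted p = 1). In the late phase the value was 0.85 (SE 0.07, adjusted p = 3.2e-08) and over the whole process -0.16 (SE 0.07, adjusted p = 0.033), both under 2-fold.

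Fbln1 (14114), a fibulin found within the elastic core and in basement membranes, had an FPKM of 43.54, 42.30 and 43.66 at day 0, of 15.13, 14.96 and 12.71 at day 4, and of 33.31, 33.57 and 34.95 at day 8. It was downregulated 2.89-fold in the early phase (log2 fold change -1.53, SE 0.06, adjusted p = 2.5e-12 by edgeR) and upregulated 2.45-fold in the late phase (1.30, SE 0.06, adjusted p = 1.2e-10). Over the whole process the value was -0.23 (SE 0.06, adjusted p = 0.0019), short of the fold threshold. The log2 ratio of Fbln1 to Fbln2 (FPKM) was -3.39 ± 0.07, -3.90 ± 0.06 and -3.45 ± 0.02 at day 0, 4 and 8 (SD, n = 3). The ratio was lowest in the 3 day 4 samples, with an exact permutation p = 0.1 (two-sided) against either other day, the smallest that 3 against 3 samples allow. After adjustment over the 6 ratio comparisons the p was 0.2, and between day 0 and day 8 it was 0.36 (exact permutation test).

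Fbln5 (23876) guides elastin onto microfibrils and binds integrins of the cell. Its FPKM was 25.45, 27.55 and 24.23 at day 0, 14.83, 14.44 and 13.37 at day 4, and 18.93, 19.97 and 20.54 at day 8. No comparison reached 2-fold for Fbln5. The log2 fold changes were -0.79 (SE 0.06, adjusted p = 4.5e-09 by edgeR), 0.52 (SE 0.06, adjusted p = 2.2e-06) and -0.26 (SE 0.06, adjusted p = 0.00063) for the early phase, the late phase and the whole process.

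Emilin1 (100952) encodes elastin microfibril interfacer 1, which lies between core and microfibrils and is known to restrain the maturation of TGF-beta. Its FPKM was 69.47, 65.13 and 68.47 at day 0, 72.52, 73.34 and 66.93 at day 4, and 69.29, 65.91 and 65.74 at day 8. The days overlapped. The log2 fold change was 0.13 (95% interval 0.03 to 0.24, adjusted p = 0.026 by edgeR) in the early phase, -0.04 (-0.14 to 0.07, adjusted p = 0.57) in the late phase and 0.10 (-0.01 to 0.20, adjusted p = 0.097) over the whole process. Thus a change of 2-fold lay outside all 3 intervals. The sign of the value over the whole process turned with library size alone (-0.01) and with limma on log2(FPKM + 1) (-0.01), and that of the late phase without day 4 replicate 2 (0.02).

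The sequences before the starts of Fbln1 and Fbln5 are shown because both genes had their lowest level at day 4, and each has a window that overlaps no annotated exon. They are 250 bases from RefSeq (GRCm38.p6), read 5′ to 3′ on the strand of the gene, and capitals mark the matches of the motifs searched. The window shown for Fbln1 is chr15:85205699-85205948 (plus strand) and that of Fbln5 is chr12:101819120-101819369 (minus strand).
Fbln1: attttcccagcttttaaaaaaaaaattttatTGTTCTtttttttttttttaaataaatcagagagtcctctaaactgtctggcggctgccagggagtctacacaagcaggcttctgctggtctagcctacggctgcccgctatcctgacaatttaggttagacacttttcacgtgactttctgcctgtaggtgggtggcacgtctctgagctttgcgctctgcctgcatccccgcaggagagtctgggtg
Fbln5: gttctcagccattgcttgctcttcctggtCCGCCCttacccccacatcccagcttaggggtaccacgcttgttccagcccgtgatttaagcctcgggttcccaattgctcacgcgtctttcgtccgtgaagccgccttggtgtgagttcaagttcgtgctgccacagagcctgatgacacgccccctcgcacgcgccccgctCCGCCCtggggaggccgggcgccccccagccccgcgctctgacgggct
Both strands were searched for the TATA box (TATAAA), the GC box (GGGCGG), the AP-1 site (TGANTCA), the TEAD site (GGAATG), a half-site of the glucocorticoid receptor (AGAACA), the C/EBP site (TTGCNNAA) and the forkhead site (TGTTTAC). The Fbln1 window shown held 1 match, a half-site of the glucocorticoid receptor on the opposite strand, at bases 219 to 214 before the start. The Fbln5 window shown held 2 matches of the GC box, both on the opposite strand. RefSeq gave each of these genes 1 more window. That of Fbln1 overlapped exons by 59 bases and held a GC box on the opposite strand at bases 11 to 6 before its start, and that of Fbln5 overlapped an exon by 1 base and held no match. Among all 32851 promoter windows of the same length, 16.1% held the half-site and 32.7% the GC box. RefSeq windows were matched for 6 of the 9 genes. The half-site was also in the window of Emilin1 (bases 186 to 181), whose level changed little, and in a window of Mfap2 (197 to 192). The GC box was also in windows of Fbn1, Fbln2 and Mfap2. A match describes the letters only.

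As FPKM is scaled to length, levels can be set side by side between genes. At day 0 the order by mean FPKM was Fbln2 (453), Emilin1 (67.7), Fbn1 (57.4), Fbln1 (43.2), Fbln5 (25.7), Mfap5 (5.12), Mfap4 (4.04), Eln (0.357) and Mfap2 (0.147). Only Mfap5 and Mfap4 overlapped among neighbours in this order. At day 4 the order was Fbln2 (213), Emilin1 (70.9), Fbln1 (14.3), Fbln5 (14.2), Fbn1 (13.1), Mfap5 (7.14), Mfap4 (2.60), Eln (1.03) and Mfap2 (0.413), and the samples of Fbln1, Fbln5 and Fbn1 overlapped. At day 8 Mfap4 (50.4) came next after Fbln2 (372) and Emilin1 (67.0). It was followed by Fbn1 (35.8), Fbln1 (33.9), Fbln5 (19.8), Mfap5 (9.74), Eln (6.91) and Mfap2 (0.397), with an overlap between Fbn1 and Fbln1.

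The FPKM of the 9 genes together was 656 ± 33.7, 336 ± 27.3 and 596 ± 11.5 at day 0, 4 and 8 (mean ± SD, n = 3). The day 4 samples lay between 307 and 361, below every sample of the other days. Fbln2 alone held 68.9%, 63.2% and 62.4% of the sum on the 3 days. The share of Emilin1 was 10.3%, 21.1% and 11.2%, so it was highest where the sum was lowest. Fbn1 held 8.74%, 3.87% and 6.01%. Mfap4 held 0.616%, 0.778% and 8.46%, and Eln 0.0542%, 0.307% and 1.16%. The day 8 mixture therefore had a sum close to that of day 0 but a larger share of Mfap4 and Eln.

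**Figure D3:**
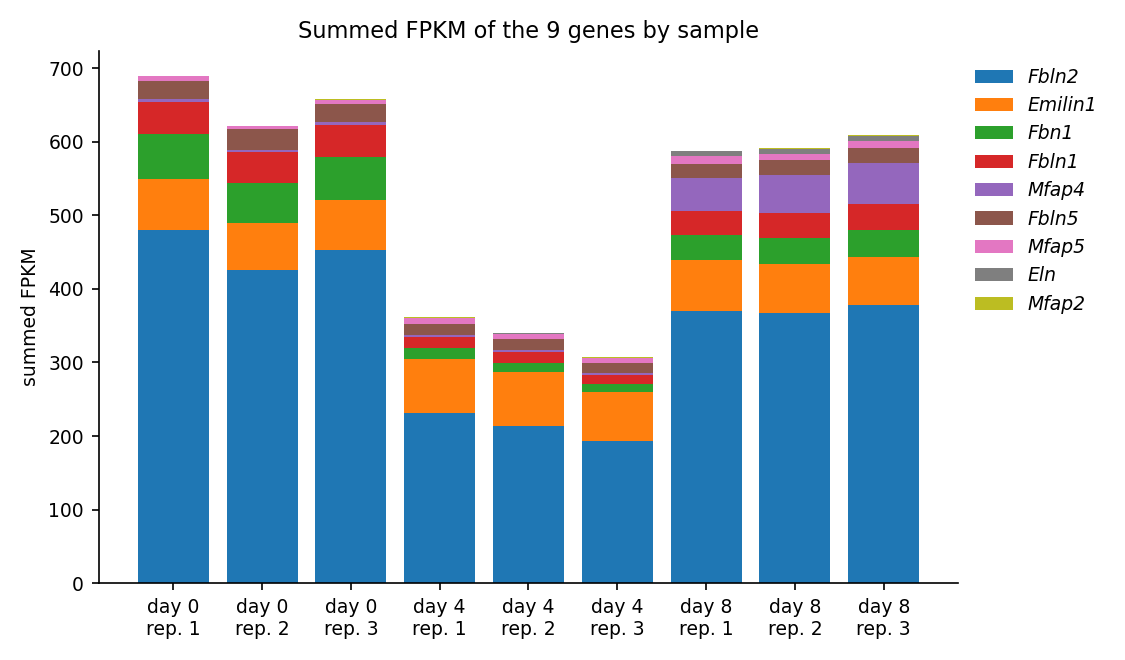
Summed FPKM of the 9 genes in each of the 9 samples (y axis), with 1 bar per sample and 1 colour per gene. The day 4 bars end between 307 and 361, the day 0 bars between 622 and 689 and the day 8 bars between 587 and 609, and the Mfap4 segment is visible mainly at day 8.

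Whether the late change differed from the early change was tested for each gene in the same edgeR model, with day 4 entering both changes. Of the 8 genes, 6 differed at an adjusted p under 0.05, and in all 6 the late change was the more positive. Among all genes tested, 56.6% differed and 26.2% did so with the late change more positive. The differences (late minus early, log2) were 4.89 for Mfap4 (SE 0.22, adjusted p = 2.0e-11 by edgeR), 3.57 for Fbn1 (SE 0.17, adjusted p = 3.1e-11) and 2.83 for Fbln1 (SE 0.11, adjusted p = 4.5e-12). They were 1.85 for Fbln2, 1.31 for Fbln5 and 1.22 for Eln. For Eln, the difference was between a smaller and a larger rise (adjusted p = 0.00079). For Mfap5 it was -0.05 (SE 0.20, adjusted p = 0.85) and for Emilin1 -0.17 (SE 0.09, adjusted p = 0.10), neither past the threshold. Fbn1 and Fbln1 were downregulated in the early phase and upregulated in the late phase, a pattern that 1.38% of all genes tested had.

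For Fbln2 the files also give a length, the mean length of its transcripts weighted by their estimated abundance. This mean was 4389.6, 4378.18 and 4390.37 bases at day 0, 4425.91, 4428.23 and 4426.79 at day 4, and 4410.39, 4410.78 and 4410.85 at day 8. The days did not overlap, with the longest mean at day 4, where the level of Fbln2 was lowest. The means were 4386 ± 6.83, 4427 ± 1.17 and 4411 ± 0.248 bases (SD, n = 3), and each pair of days gave an exact permutation p = 0.1 (two-sided), the smallest that 3 against 3 samples allow. Of 4141 genes with several transcripts, 24.3% did not overlap between day 0 and day 4, and 10.9% did so with a difference at least that of Fbln2. For the late phase, the shares were 16.5% and 9.64%, and for the whole process 22.8% and 12.4%.

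In the mouse annotation (GENCODE vM21, GRCm38), a pair of Fbln2 transcripts differs by a cassette exon, which is shown because it is the main difference in length between them. It is exon 9 of 18 in the longer one, has 141 bases or 47 codons, and lies at chr6:91259630-91259770 (plus strand). The exon is given in capitals between 15 bases of each neighbouring exon in lower case, 5′ to 3′.
Fbln2 exon 9: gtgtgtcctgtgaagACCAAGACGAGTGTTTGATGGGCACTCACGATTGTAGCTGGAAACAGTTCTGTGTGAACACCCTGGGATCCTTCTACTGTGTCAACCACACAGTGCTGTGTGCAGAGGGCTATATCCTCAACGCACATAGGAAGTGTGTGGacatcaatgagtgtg
The annotated lengths are 4786 and 4644 bases. The lengths in the files are below both, and those of the transcript sequences used by the authors are not given in the sources used here. Hence neither the share of each transcript nor which of them was more abundant at day 4 was derived.

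**Figure D4:**
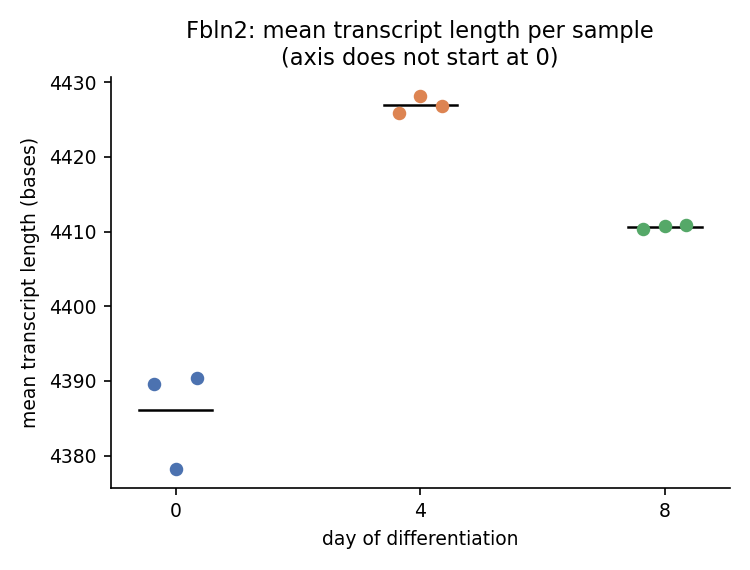
Mean transcript length of Fbln2 in bases (y axis, not starting at 0) by day of differentiation (x axis), with 1 point per sample and a line at the mean of each day. The day 0 samples lie between 4378.18 and 4390.37, the day 8 samples at 4410.39 to 4410.85 and the day 4 samples at 4425.91 to 4428.23.

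The other genes of elastic fibre assembly were taken from 9 hand-written lists with 56 genes, of which 46 were tested. In the early phase, 2 were upregulated and 9 downregulated by edgeR, against 9.77% and 7.98% of all genes tested. In the late phase the counts were 7 and 1, against 4.24% and 2.81%. Over the whole process they were 9 and 4, against 10.3% and 7.7%, where the 4 downregulated genes were near the share of all genes. The medians of the log2 fold changes were -0.04, 0.15 and -0.0042. The early count of upregulated genes was 4 without day 0 replicate 1 and 5 without day 4 replicate 3. Bgn, a proteoglycan of the matrix, was the highest of the 46, with 2664 FPKM at day 0.

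Lysyl oxidases crosslink elastin and collagen. Lox and Loxl1 were the most abundant of the 5, with 249 ± 17.2, 390 ± 15.9 and 242 ± 14.0 FPKM for Lox and 189 ± 6.81, 163 ± 11 and 222 ± 16.2 FPKM for Loxl1 at day 0, 4 and 8 (mean ± SD, n = 3). Neither passed 2-fold in any comparison, and the log2 fold changes of Lox were 0.69 in the early phase and -0.63 in the late phase. Loxl3 (-1.05) and Loxl4 (-1.89) were downregulated in the early phase. Loxl4 was also downregulated over the whole process (-2.41, SE 0.07, adjusted p = 3.4e-14 by edgeR), while Loxl2 was upregulated (1.14) but reached only 0.633 FPKM at day 8. Of the 3 processing genes 0 were called by edgeR, with 3 of 3 higher at an unadjusted p under 0.05 in the early phase, 1 lower in the late phase and 2 higher over the whole process. The counts were the same at the adjusted p, which 35.5%, 22.7% and 34.8% of all genes passed in these directions. Among them, Furin, the protease that releases the propeptide of fibrillin-1, had 35.7 ± 1.26, 55.3 ± 3.18 and 33.1 ± 1.31 FPKM at day 0, 4 and 8, highest on the day when Fbn1 was lowest.

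Among the other fibulins, 4 of 5 were tested. Efemp1 (fibulin-3) was downregulated in the early phase (log2 fold change -2.65, SE 0.34, adjusted p = 3.2e-06 by edgeR) and over the whole process (-3.33), from 37 to 48 counts per sample at day 0 to 2 to 5 counts at day 8. Efemp2 (fibulin-4), which is needed for elastic fibres and binds lysyl oxidase, had 233 ± 6.94, 180 ± 4.84 and 205 ± 5.78 FPKM and was not called in any comparison. Its samples did not overlap between days, and its early value was -0.31 (adjusted p = 2.0e-05 by edgeR). Fbln7 was upregulated in the late phase (1.47) and over the whole process (2.16), and Hmcn1 (hemicentin-1) over the whole process (1.41). Efemp2 thus had the same order of days as Fbln1, Fbln2 and Fbln5, while Efemp1, Fbln7 and Hmcn1 did not.

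Of the 7 genes of latent TGF-beta binding proteins and TGF-beta, 1 was called, Tgfb2, which was upregulated over the whole process (log2 fold change 1.15, SE 0.07, adjusted p = 9.0e-10 by edgeR), and 1 of 7 is near the 10.3% of all genes. At the adjusted p alone, 3 of the 7 were higher and 2 lower in the early phase, against 35.5% and 33.7% of all genes. In the late phase 5 were higher and 1 lower, against 22.5% and 22.7%. Over the whole process 4 were higher and 2 lower, against 34.8% and 36.2%. Ltbp2, a binding protein that attaches to fibrillin, had 60.3 ± 4.83, 37.6 ± 2.68 and 36.4 ± 1.19 FPKM at day 0, 4 and 8. Emilin2, a relative of Emilin1, was upregulated in the late phase (2.01, SE 0.23, adjusted p = 3.2e-06), but reached only 1.11 ± 0.181 FPKM at day 8. Mmrn2 was downregulated in the early phase (-1.20), from 0.797 to 0.330 FPKM.

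ADAMTS-like proteins and some ADAMTS proteases bind fibrillin microfibrils, and 7 of 9 were tested. In the early phase 2 were upregulated and 2 downregulated, against 9.77% and 7.98% of all genes. The counts were 1 and 1 in the late phase, against 4.24% and 2.81%, and 2 and 0 over the whole process, against 10.3% and 7.7%. Adamtsl4 was upregulated in the early phase (log2 fold change 1.71, SE 0.06, adjusted p = 6.7e-13 by edgeR) and downregulated in the late phase (-1.63, SE 0.06, adjusted p = 6.4e-12). It had 8.19 ± 0.552, 25.7 ± 1.66 and 8.05 ± 0.176 FPKM and was thus highest at day 4, where Fbn1 was lowest, while its day 0 and day 8 samples overlapped. Adamts6 had the same direction as Fbn1, with a downregulation in the early phase (-1.93) and an upregulation in the late phase (1.10). Adamtsl2 was upregulated in the early phase (3.21) on 0 to 5 counts per sample at day 0, and Adamtsl1 was downregulated (-1.16) on 6 to 23 counts at day 4. Adamts17 was upregulated over the whole process (1.93) and had at most 21 counts in a sample. Adamts10 and Adamtsl5 were not called in any comparison. Adamts10 was lowest at day 4, with 11.2 ± 1.04, 7.84 ± 0.278 and 11.4 ± 0.439 FPKM at day 0, 4 and 8. Adamtsl5 was lower on each later day, with 15.5 ± 1.63, 9.93 ± 1.37 and 7.25 ± 0.339 FPKM.

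Of the proteases able to degrade elastin, 4 of 8 were tested and only Mmp9 was called, downregulated in the early phase (log2 fold change -1.95, SE 0.10, adjusted p = 5.4e-11 by edgeR) and upregulated in the late phase (1.12). Of all genes, 7.98% and 4.24% were called in these directions. Mmp2 was the most abundant protease, with 409 ± 43.4, 779 ± 113 and 698 ± 20.3 FPKM, and its early value of 0.99 was just short of the fold threshold. Mmp12, the macrophage elastase, had 0 to 4 counts in every sample.

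Among the receptors, 9 of 10 were tested. In the early phase 1 was downregulated, in the late phase 2 were upregulated, and over the whole process 1 was upregulated and 1 downregulated. Of all genes, 7.98%, 4.24%, 10.3% and 7.7% were called in these directions, and each count of 1 of 9 is near its share. Itgav, the alpha-v integrin subunit that binds fibrillin and fibulin-5, was downregulated in the early phase (log2 fold change -1.48, SE 0.07, adjusted p = 2.0e-11 by edgeR) and over the whole process (-1.02). Its partner Itgb5 was upregulated in the late phase (1.08) after an early value of -0.99. Itga8, at most 119 counts in a sample, was upregulated in the late phase (2.06) and over the whole process (1.08). Glb1, Ctsa and Neu1, whose products form the elastin receptor complex, were not called. Of these, Ctsa was lower on each later day without overlap of samples, with 210 ± 9.40, 151 ± 18.5 and 114 ± 1.51 FPKM. Its early log2 fold change was -0.40 (adjusted p = 9.6e-05 by edgeR).

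Of 5 partners in the matrix, Fn1, the fibronectin on which microfibrils assemble, was downregulated in the early phase (log2 fold change -2.53, SE 0.10, adjusted p = 2.0e-12 by edgeR) and over the whole process (-1.79). It had 1145 ± 120, 191 ± 28.1 and 309 ± 17.5 FPKM at day 0, 4 and 8. Its late value of 0.74 was short of the fold threshold, in contrast to the upregulation of Fbn1 (1.50), a difference between genes that was not tested. Decorin (Dcn) was upregulated in the late phase (1.80, SE 0.07, adjusted p = 4.7e-12) and over the whole process (2.29).

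**Figure D5:**
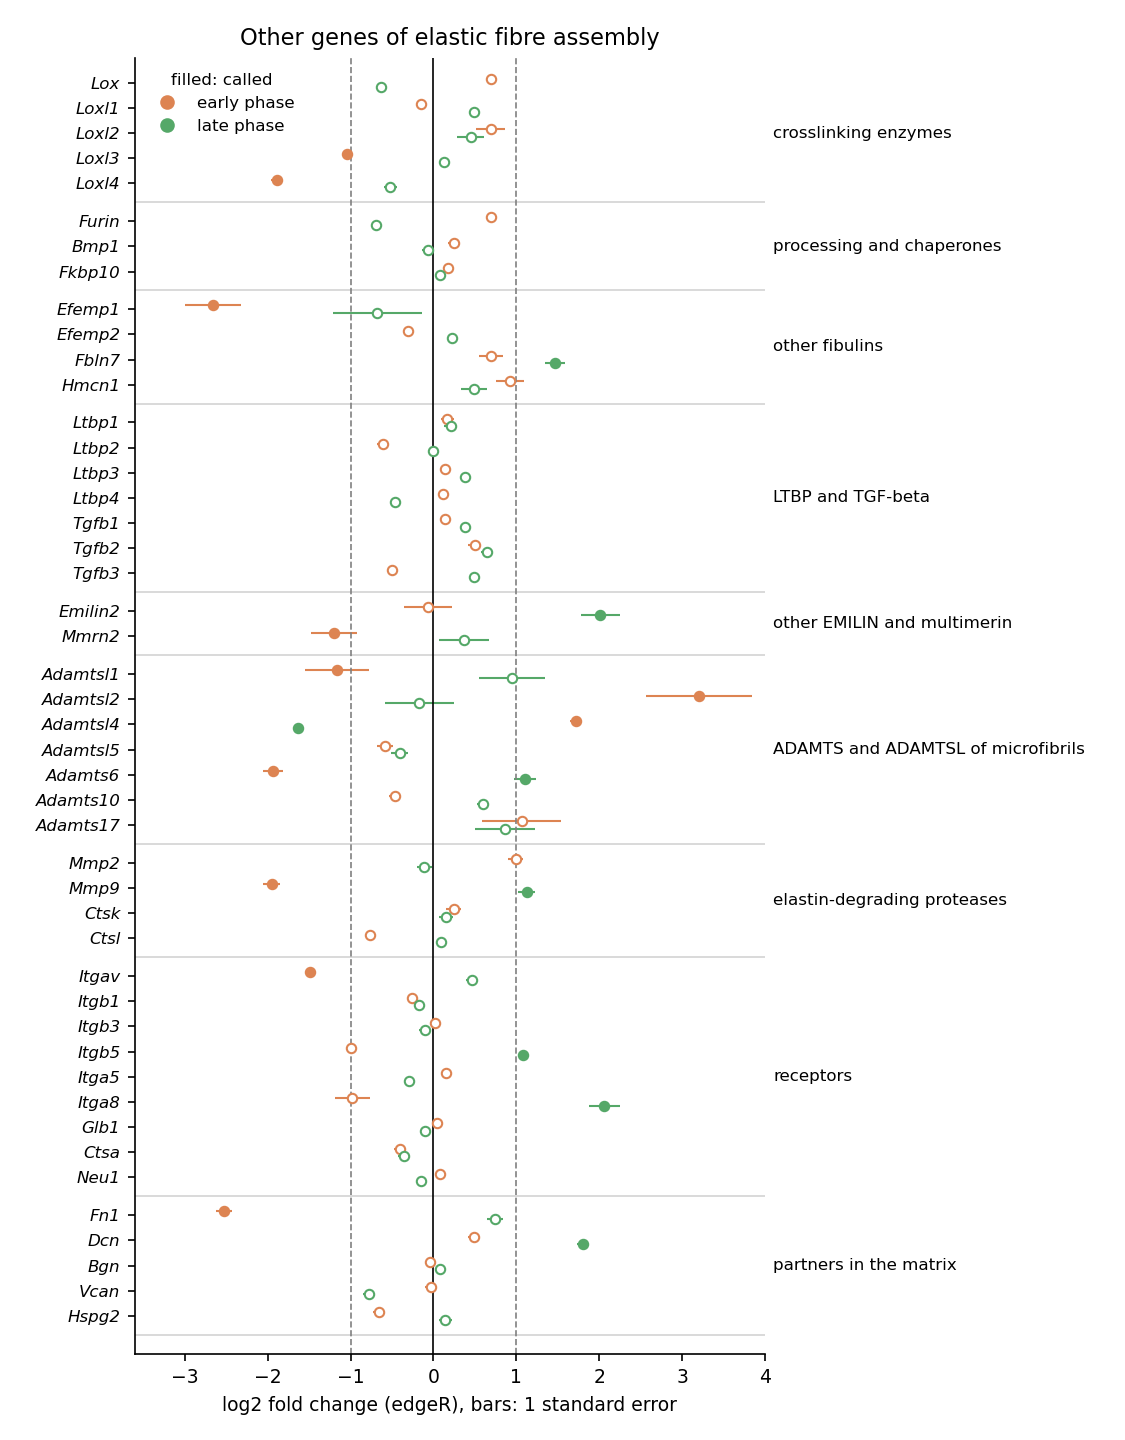
Log2 fold changes (x axis, edgeR) of the 46 tested genes of the 9 lists in the early and the late phase. Bars are 1 standard error, filled points were called and dashed lines mark a 2-fold change; Adamts6 and Mmp9 are called on the left in the early phase and on the right in the late phase, and Adamtsl4 the other way round.

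For comparison, 8 of 9 fibrillar collagen genes were tested, of which 1 was upregulated and 0 downregulated in the early phase, where 3 of the 8 elastic fibre genes were downregulated (edgeR; at the adjusted p alone, 4 of the 8 collagen genes were higher and 3 lower). Of all genes, 9.77% were upregulated and 7.98% downregulated in this phase, and 1 and 0 of 8 are near these shares. Col1a1 had an early log2 fold change of -0.18 and Col1a2 of -0.25. Later, 1 of 8 was upregulated in the late phase (Col3a1, 1.26) and 1 downregulated (Col11a2, -1.01), against 4.24% and 2.81% of all genes. At the adjusted p alone, 6 of the 8 collagen genes were higher and 1 lower in the late phase, beside 7 and 0 of the 8 elastic fibre genes and 22.5% and 22.7% of all genes. Of the collagen genes, 3 were upregulated over the whole process, against 10.3% of all genes. The difference between the gene groups was not tested.

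For each elastic fibre gene, the 3 tested genes with the most similar pattern were found among 11333 genes whose mean log2 CPM was at least 1. Likeness was the root mean square distance between log2 CPM values of the 9 samples, each centred on its mean, with a prior count of 2. For Fbn1 they were Tgfbi (0.141), Ank1 (0.142) and L1cam (0.167), and for Fbln1 Kif26b (0.0798), Ackr3 (0.104) and Nr1d2 (0.116). For Fbln2, the nearest was Thbs2 (0.0574), which encodes the matrix protein thrombospondin-2, before Fzd1 (0.0654) and Nedd9 (0.0763). For Fbln5 they were Asns (0.0470), Sc5d (0.0503) and Jak1 (0.0551), and for Mfap5 Rgma (0.0966), Pcdh1 (0.102) and Zfp862-ps (0.106). For Eln they were Lctl (0.236), Il2ra (0.267) and Sbsn (0.277), at a Pearson correlation of 0.994 each over the 9 samples of 3 days, against 0.982 to 0.990 for the matches of Fbn1. The distance grows with the size of a gene's change, so it does not rank how close the matches of different genes were. For Mfap4 the distances were larger, with Sncg at 0.335, Ranbp3l at 0.611 and Il2ra at 0.801. For Emilin1, Homer3 (0.0236), Limd1 (0.0245) and Hps1 (0.0345) had equally small changes.

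Markers of cell types were read in the same samples. Adipocyte markers summed to between 144 and 149 FPKM at day 0, against 6179 to 8863 at day 4 and 9197 to 10020 at day 8. Lpl was the most abundant at day 0 and Fabp4 later, all 11 were upregulated in the early phase, and Lep alone was at 0 in all day 0 samples. The 3 day 4 samples had marker sums of 6179, 7351 and 8863 FPKM in replicates 1, 2 and 3, and summed FPKM of the elastic fibre genes of 361, 341 and 307. The sample with the highest adipocyte markers at day 4 thus had the lowest elastic fibre sum, in 3 samples and without a test. The other days did not have this order. At day 8, replicate 1 had the lowest of both sums (9197 and 587 FPKM), and at day 0 it had the highest of both (149 and 689). Markers of preadipocytes and fibroblasts (8 of 8 above 0) summed to between 4585 and 4851 FPKM at day 0. Their sums were 3101 to 3445 at day 4 and 5530 to 5645 at day 8, with Col1a2 the highest. Most of each sum was Col1a1 (means of 1540, 1299 and 2270 FPKM at day 0, 4 and 8) and Col1a2 (1835, 1476 and 2512). Of the other markers, Dlk1, Thy1, Ly6a and Cd34 had a lower mean at day 8 than at day 0. Pdgfra and Pdgfrb had a higher one. In the early phase 2 of the 8 (Dlk1 and Ly6a) were downregulated and 0 upregulated by edgeR, against 7.98% and 9.77% of all genes, and in the late phase 1 (Dlk1) was upregulated, against 4.24%. By the adjusted p alone, 1 was higher and 7 lower in the early phase (35.5% and 33.7% of all genes), and 5 were higher and 1 lower in the late phase (22.5% and 22.7%). Dlk1, the preadipocyte marker that restrains adipogenesis, had 828 ± 33.6, 181 ± 13.9 and 415 ± 5.57 FPKM, with log2 fold changes of -2.13 and 1.24 in the 2 phases. Pdgfra, a receptor of mesenchymal cells, went the other way by less than 2-fold (0.84 and -0.59), with 59.6 ± 2.66, 102 ± 6.14 and 65.7 ± 1.41 FPKM. Ly6a, with 167 ± 3.73, 42.7 ± 0.388 and 38.8 ± 1.23 FPKM, was not higher at day 8 than at day 4, and neither was Cd34, at 0.510, 0.307 and 0.207 FPKM. Pdgfrb, with 76.9 ± 4.83, 48.1 ± 5.27 and 86.0 ± 0.583 FPKM, and Thy1, with 227 ± 10.3, 160 ± 7.55 and 212 ± 2.75 FPKM, were lowest at day 4. Like Col1a1 and Col1a2, both were higher again at day 8, without a call in either phase. As RNA was taken from all cells together, fewer cells of a type and less RNA per cell cannot be told apart, and the part of either in the day 4 levels was not tested.

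Smooth muscle markers summed to between 314 and 384 FPKM at day 0, against 67.4 to 95.9 at day 4 and 121 to 137 at day 8. Most of this sum was Acta2, which was downregulated in the early phase (log2 fold change -2.59, SE 0.13, adjusted p = 3.7e-11 by edgeR). The other markers were divided in this phase. Tagln was downregulated (-1.79) and Myh11 upregulated (2.90, from 0.167 to 1.18 FPKM), while Smtn (0.57) and Des (0.34) were higher by less than 2-fold, and Cnn1 had at most 6 counts in a sample. In the late phase all 5 markers tested were higher (adjusted p under 0.05 by edgeR), as were 22.5% of all genes. Their late log2 fold changes lay between 0.31 (Smtn) and 0.91 (Des), all under 2-fold. The part of the smooth muscle markers in the levels of the elastic fibre genes was not tested. The sum of the 6 chondrocyte markers was nearly all Sox9, with 58.9 ± 2.58, 27.1 ± 1.81 and 18.8 ± 1.01 FPKM at day 0, 4 and 8. Sox9 was downregulated early (-1.06) and over the whole process (-1.53). Comp, the other marker tested, was upregulated early (1.55, from 0.597 to 1.68 FPKM) and higher by less than 2-fold over the whole process (0.73). The part of either gene in the levels of the elastic fibre genes was not tested. Acan and Col2a1 had at most 1 and 12 counts in a sample. Macrophage markers summed to at most 2.21 FPKM and endothelial markers to at most 1.08. The extraction text of the labels names DRG, which is no cell line. The 7 markers of sensory neurons summed to at most 2.91 FPKM, led by Avil at day 0 and Snap25 later, with Scn10a at 0 or 1 count in every sample.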

How the data were processed

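RNA from 9 samples of 3T3-L1 cells was sequenced on an Illumina platform by a service provider, while the labels name a library kit of another platform. After removal of reads of poor quality, the authors mapped the rest with HISAT/Bowtie2 (the submitters' processing notes name Bowtie2 and CASAVA 1.4) and quantified genes with RSEM. The genome build, the annotation and the strand setting are not given in the sources used here. The deposited expected counts are not normalized, the deposited FPKM values are corrected for gene length and depth, and the deposited length column, another unit, is a mean transcript length in bases.

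After rounding, expected counts were tested with edgeR 4.0.16 in R 4.3.3 (filterByExpr by day, TMM factors, glmQLFit and glmQLFTest), with 1 coefficient per day and no covariate. The depth of 18216114 to 20452144 expected counts per sample sets the floor of 3 counts. Alternatives were DESeq2 1.42.0, edgeR's exact test, glmTreat, limma 3.58.1 on log2(FPKM + 1) and log2(FPKM + 0.1), other factors and filters, the threshold on the adjusted p alone, models of the days compared only, a replicate block and each sample left out in turn. The steps were tested on simulated data, in which changes of genes with few counts were missed, and the abundance above which every change had to be recovered was set after these misses were seen. No sample pair agreed within sampling noise. The ratio of Fbn1 to Fbn2 was not analysed here. The elastic fibre genes and all lists were chosen with earlier results of these data known. Named were the elastic fibre genes, up to 3 called genes per list, direction and comparison, genes that describe a family, the 3 nearest patterns per gene, and the highest and absent markers, of which some are not reported here.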

Additional observations from a re-analysis of the deposited data

Results flagged for a closer look

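The mean transcript length of Fbln2, a column that does not enter edgeR's test on the counts, was 40.9 bases longer at day 4 than at day 0. Its samples did not overlap between the days. The 3 day 4 samples lay within 4425.91 to 4428.23 bases and the 3 day 0 samples within 4378.18 to 4390.37. It was picked out because a change appeared in a column outside the main measurement. At 24.3%, genes with several transcripts and no overlap between these days were common.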

How the results depend on the processing

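The 8 tested genes gave 24 log2 fold changes. With 1 sample left out, 212 of the resulting values kept their direction and side of the threshold, 3 lost their call and 1 turned its sign, and under the other alternatives the numbers were 278, 7 and 3. The lost calls were those of Fbln2 and Eln in the early phase and of Mfap5 over the whole process. Mfap5 was at 0.82 and 0.92 with limma, and limma on log2(FPKM + 1) left Eln at 0.58 in the early phase. The sign of Emilin1 over the whole process turned to -0.0147 with library size alone, to -0.0149 with limma on log2(FPKM + 1) and to -0.0151 with limma on log2(FPKM + 0.1), and that of its late value, -0.0813 to 0.0187 with 1 sample left out, without day 4 replicate 2. Library size alone moved the median of all genes over the whole process from -0.02 to -0.13. The causes were not tested.

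Without a filter Mfap2 was tested too, and 2 of the 9 genes were upregulated early and 4 over the whole process, with Mfap2 added in both. Among the 8 genes, the number upregulated in the early phase was 0 with limma on log2(FPKM + 1) and 3 by the adjusted p alone. By the adjusted p alone, 5 were lower in the early phase, 7 higher in the late phase and 4 lower over the whole process. With 1 sample left out, 2 to 3 were downregulated in the early phase and 2 to 3 upregulated over the whole process. Of the assembly genes, limma on log2(FPKM + 1) called 1 upregulated in the early phase, 3 in the late phase and 2 over the whole process, and glmTreat 4 in the late phase and 5 over the whole process. By the adjusted p alone, 16 were higher and 21 lower in the early phase, 19 and 10 in the late phase, and 17 and 17 over the whole process. Leaving out 1 sample gave 2 to 5 upregulated in the early phase. The summed FPKM at day 8 was 618 when divided by TMM factors, and the log2 ratio of Mfap5 to Mfap2 at day 0 was 4.44 with a pseudocount of 0.1.

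Of all genes, 1285, 558 and 1356 were upregulated and 1050, 370 and 1013 downregulated in the early phase, the late phase and over the whole process. With library size alone, 1195, 512 and 1190 were upregulated and 1160, 410 and 1214 downregulated. Over the whole process, downregulated genes were then the more numerous. With at least 10 counts in every sample, 831 were upregulated in the early phase, and 310 were upregulated and 173 downregulated in the late phase. By limma on log2(FPKM + 1) the numbers were 708 and 565, 224 and 136, and 753 and 528. By glmTreat, 664 were downregulated in the early phase and 571 in the whole process, with 248 upregulated and 129 downregulated in the late phase. By the adjusted p alone they were 4676 and 4430, 2964 and 2989, and 4583 and 4756.

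A pairing of the samples by replicate number was not shown, though so few samples cannot exclude one. The mean correlation of deviations was 0.029 for same numbers and -0.015 for other numbers. Same-numbered samples of different days had deviations correlated at -0.0458 to 0.143, over 0.1 in 1 of 9 pairs, and 4 of 9 samples correlated best with their own number. With the replicate block, the elastic fibre genes had the same counts of calls (1 and 3, 4 and 0, 3 and 0), and all genes gave 1287 and 1053, 556 and 367, and 1360 and 1010. The block changed no call of an elastic fibre gene.

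Depth limited Mfap2, and Eln at day 0, where 20 to 33 counts stood behind each value.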

Other observations

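Small leucine-rich proteoglycans, which bind collagen fibrils and elastic fibres, were also read. Of 11 tested, 3 were upregulated and 1 downregulated in the early phase, 6 and 0 in the late phase, and 7 and 0 over the whole process (edgeR; at an unadjusted p under 0.05, 0 were lower in the late phase and 1 over the whole process). Of all genes, 9.77% were upregulated and 7.98% downregulated in the early phase, 4.24% and 2.81% in the late phase, and 10.3% and 7.7% over the whole process, so the 1 early downregulation was near the share of all genes. Lum (lumican), which organizes collagen fibrils, had 3.23 ± 0.604, 23.8 ± 0.625 and 195 ± 4.99 FPKM at day 0, 4 and 8 (mean ± SD, n = 3), and was upregulated in both phases (log2 fold changes 2.94 and 3.08). Fmod (fibromodulin) had 9.63 ± 0.446, 2.85 ± 0.434 and 22.6 ± 0.552 FPKM, with a downregulation in the early phase (-1.69) and an upregulation in the late phase (3.03). Prelp was upregulated in the late phase (1.05), from 67.8 ± 4.0 to 136 ± 6.54 FPKM. Bgn (biglycan) was the most abundant and had 2664 ± 23.5, 2474 ± 80.9 and 2531 ± 51.3 FPKM, with log2 fold changes of -0.04 and 0.08 in the 2 phases. These genes were described and not tested as a set.

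Among the fibrillar collagens, Col5a3 was upregulated in the early phase (log2 fold change 1.16) and over the whole process (1.58), from 23.8 ± 2.04 FPKM at day 0 to 65.9 ± 4.07 at day 8. Col11a1 was upregulated over the whole process (1.19), from 11.3 ± 1.4 to 23.7 ± 0.767 FPKM, and Col2a1 had at most 12 counts in a sample.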
